A study of Mus musculus with 9 samples.

Results

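The 47 genes described here encode the digestive machinery of the lysosome: 9 cysteine cathepsins, 4 other proteases, 1 cathepsin inhibitor, 7 glycosidases, 7 proteins of lipid breakdown, 12 membrane and other lysosomal proteins, 6 parts of the proton pump and the transcription factor Tfeb. They were chosen by symbol for these roles, and all 47 are among the 23366 gene symbols of the deposited expression table. Of these, 45 had a mean of at least 1 FPKM (fragments per kilobase of transcript, scaled to library size) over all libraries and were tested, and each of the 45 also had a mean of at least 1 FPKM within both groups. Ctsk and Atp6v0d2 were too low to be tested.

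Lysosomes are acidic vesicles in which proteins, glycans and lipids are broken down. The vacuolar proton pump acidifies them, and most of their enzymes work only at that low pH. Macrophages, which engulf and digest material, carry many lysosomes rich in cathepsins, whereas cytotoxic CD8+ T cells use a modified lysosome, the lytic granule, to store perforin and granzymes. Cathepsin C trims granzymes to their active form in that granule, cathepsin W is made by CD8+ T cells and natural killer cells, and cystatin F, encoded by Cst7, restrains cathepsins of cytotoxic cells. TFEB and its relatives switch on many lysosomal genes through an E-box motif in their promoters.

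RNA was sequenced from CD8+ T cells taken out of B16F10 tumours, a transplanted mouse melanoma, in C57BL/6 mice. The 4 IL27ra KO libraries came from mice that lack the receptor chain for interleukin 27, and the 5 WT libraries from wild-type mice. The labels give neither the disrupted stretch of the gene nor the way the T cells were purified. They also leave unsaid whether each library is a separate animal, so the spread behind each p-value is that between libraries and may be technical. Values are TMM-normalized FPKM, a level per transcript length, and differences are IL27ra KO minus WT in log2(FPKM + 1). The added 1 makes the change of a low gene look smaller than it is.

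The libraries differed in more than genotype. The spacing of low FPKM values implied library sizes, after TMM scaling, of about 2510000 to 3860000 fragments in IL27ra KO and 1730000 to 4080000 in WT. The ribosomal RNA precursor Rn45s took 25.2% to 29.3% of the summed FPKM in IL27ra KO and 23.9% to 53.8% in WT. Il27ra, the targeted gene, had 4.09, 6.50, 5.62 and 7.80 FPKM in IL27ra KO replicates 1 to 4, against 25.7, 5.14, 15.2, 14.4 and 15.8 FPKM in WT replicates 1 to 5. The library labelled WT replicate 2 thus lay among the IL27ra KO values. The Il27ra difference of -1.10 (SE 0.34) missed the threshold in limma (adjusted p = 0.0996), and an exact permutation test, two-sided, gave p = 0.0635. The difference was -1.42 without the library labelled WT replicate 2 (limma, adjusted p = 0.00349). That library was singled out by its own Il27ra level, so leaving it out had to widen the difference. This p-value is therefore no independent test of Il27ra.

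Cd3e, a subunit of the T cell receptor complex, lay between 61.3 and 175 FPKM in IL27ra KO and between 172 and 298 FPKM in WT. Cd8a, which defines CD8+ T cells, lay between 25.2 and 70.7 FPKM in IL27ra KO and between 63.4 and 115 FPKM in WT. RNA of other cells was present as well. Of 22 macrophage and monocyte markers, 21 were higher in IL27ra KO, all but Ly6c2. Only 15 of the 22 averaged at least 1 FPKM in both groups. The summed level of all 22 was 1110 to 2220 FPKM in IL27ra KO against 320 to 689 FPKM in WT. Ly6c2 alone gave 245 to 568 FPKM of these sums in IL27ra KO and 189 to 328 FPKM in WT. Of 14 T cell identity markers in the table, 2 were lower and 12 did not pass, with sums of 519 to 1380 FPKM against 1130 to 1770 FPKM. Melanoma markers, 0 of 10 past the threshold, summed to 581 to 1380 FPKM in IL27ra KO and 386 to 1270 FPKM in WT. Dendritic cell markers, of which 7 of 12 could be tested and 5 were higher, summed to 484 to 1840 and 107 to 529 FPKM. The 5 were Itgax, Cd209a, Cd74, H2-Ab1 and H2-Aa, while Zbtb46 (-0.25) and Ccr7 (0.04) did not pass. Flt3, Xcr1, Clec9a, Batf3 and Siglech were too low to be tested. Cd74, H2-Ab1 and H2-Aa alone averaged 515, 421 and 291 FPKM in IL27ra KO and 65.1, 54.3 and 40.2 FPKM in WT. Neutrophil markers summed to 7.01 to 11.5 FPKM in IL27ra KO and 3.81 to 8.79 FPKM in WT, with Retnlg, Ngp, Camp and Elane listed at 0 in all 9. NK cell markers summed to 3.10 to 9.59 FPKM in IL27ra KO and 3.42 to 13.4 FPKM in WT, B cell markers to 0.97 to 3.58 and 0.37 to 1.74 FPKM, and stromal markers to 5.85 to 10.6 and 3.11 to 7.89 FPKM. IL27ra KO replicate 4 stood apart within its group, with the lowest macrophage sum (1110 FPKM) and the highest T cell sum (1380 FPKM). Of that macrophage sum, 568 FPKM came from Ly6c2. The part of these cells in the results below was not tested.

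**Figure D1:**
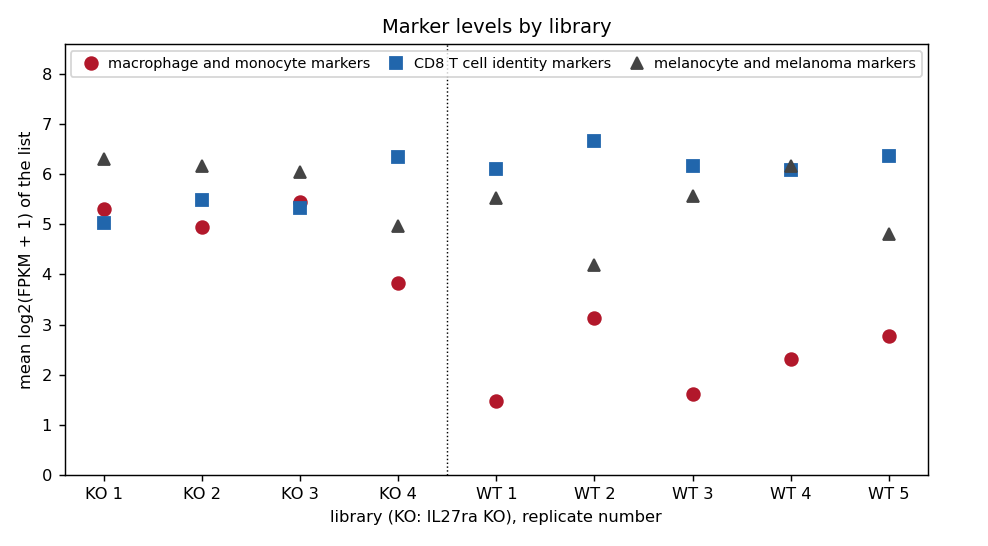
Mean log2(FPKM + 1) of the macrophage and monocyte, CD8 T cell identity, and melanocyte and melanoma marker lists in each library, with IL27ra KO replicates on the left and WT replicates on the right. The macrophage list averaged 5.31, 4.94, 5.44 and 3.82 in IL27ra KO replicates 1 to 4, and 1.48 to 3.12 in the WT libraries.

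IL27ra KO libraries had more RNA for several lysosomal proteases and lipid-handling proteins, while proton pump subunits, most glycosidases and Tfeb did not pass the test. Lipid handling, glycosidases and membrane and other proteins differed in calls more than in size, with median log2 differences of 0.62, 0.67 and 0.65. Of the 45 genes tested, 13 were higher, 1 was lower and 31 did not pass (limma, adjusted p under 0.05). Over all 10374 genes tested, 3.13% were higher and 1.11% lower, against 28.9% of these 45 higher. The 13 that rose were Ctsh, Lgmn, Cd68, Ctss, Grn, Ctsl, Psap, Ctsb, Ctsc, Ctsz, Gm2a, Hexa and Lipa, and the 1 that fell was Cst7. In a bulk library, a lower level cannot be split into fewer cells of a type and less RNA per cell, nor a higher level into more cells and more RNA per cell. The median log2 difference of the 45 was 0.63, beside 0.02 for all genes tested. All 4 IL27ra KO libraries lay above all 5 WT libraries for 16 of the 45, a larger share than the 4.26% of all genes tested. Without the library labelled WT replicate 2, 15 members were higher and 0 lower, beside 358 higher and 146 lower of all 10388 genes tested. Without IL27ra KO replicate 1, 2 or 3, each left out in turn, 7 members were higher. The same fits called 181 of 10310, 202 of 10364 and 168 of 10348 of all genes higher. Without IL27ra KO replicate 4, 16 members were higher, beside 453 of all 10397 genes tested. Scaled to the T cell identity genes, which moved the median of all genes to 0.63, 32 members were higher and 0 lower, and their median was 1.30. That scaling called 1472 of all 10565 genes tested higher and 50 lower, against 325 and 115 of 10374 in the main fit.

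**Figure D2:**
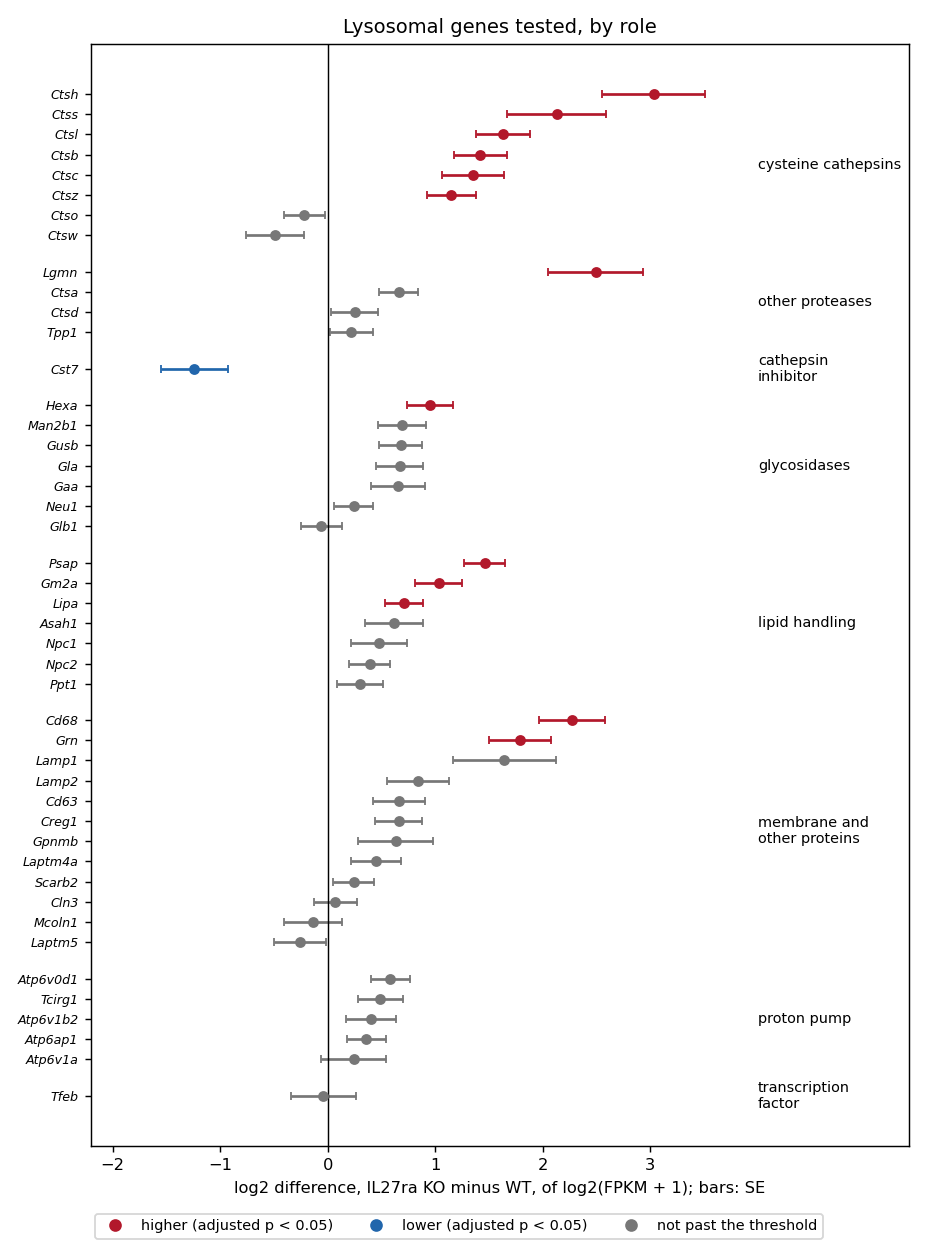
Log2 difference, IL27ra KO minus WT, with its SE for the 45 lysosomal genes tested, grouped by role. Red points passed as higher, the blue point (Cst7) as lower and grey points did not pass. Proton pump subunits cluster between 0.24 and 0.58, while the cysteine cathepsins spread from -0.49 to 3.03.

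The promoters of the genes were read next, because the E-box bound by TFEB is the best-known sequence that lysosomal genes share. RefSeq promoters on build GRCm38.p6, from 250 bases before to 50 bases after the start, were found for 40 of the 47 genes, 6 of them with more than 1 start. They were searched on both strands for CACGTG, for the longer TCACGTGA, which contains it, and for GAGGAAGT, a core bound by PU.1, the ETS factor of myeloid cells. CACGTG was present for 12 of 40 (30%), against 8.09% of all 27025 genes with a promoter and 12.3% of the tested genes with one. TCACGTGA was present for 7 of 40 (17.5%), against 1.12% and 2.54%. Those 7 genes are shown with 1 site each, in the direction of the gene and with CACGTG in capitals, because they hold TCACGTGA.
Atp6v0d1, chr8:105566051-105566078, minus strand: cctactgcggtCACGTGagacgcggtgc
Atp6v1a, chr16:44139374-44139401, minus strand: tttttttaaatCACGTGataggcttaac
Cln3, chr7:126583341-126583368, minus strand: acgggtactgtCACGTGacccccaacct
Ctsa, chr2:164833750-164833777, plus strand: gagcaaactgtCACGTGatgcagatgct
Ctsd, chr7:142387909-142387936, minus strand: cgcccgcgtctCACGTGacccgttgagg
Gla, chrX:134601183-134601210, minus strand: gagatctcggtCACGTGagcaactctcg
Mcoln1, chr8:3500463-3500490, plus strand: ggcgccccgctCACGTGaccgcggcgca

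None of these 7 genes passed the test, and their median log2 difference was 0.25. With 3.13% of all genes tested higher, 0 of 7 is near that share. All IL27ra KO libraries lay above all WT libraries for Ctsa, Gla and Atp6v0d1, as for 4.26% of all genes tested. The groups overlapped for Atp6v1a, Cln3, Ctsd and Mcoln1. Across the whole table, 1 of 198 tested genes with TCACGTGA was higher (0.505%), beside 3.13% of all genes tested. That 3.13% is over all 10374 genes tested, of which 7809 had a promoter entry. The share among the 7809 alone was not computed. The other 5 promoters with CACGTG belong to Lgmn and Ctsl, which rose, and to Gaa, Glb1 and Lamp1, which did not pass. All 12 members with CACGTG had a median of 0.61, and of all 960 tested genes with CACGTG, 20 were higher (2.08%). The sites of Lgmn and Ctsl begin 49 and 236 bases before the start and are shown because these are the members with an E-box that rose.
Lgmn, chr12:102439125-102439152, minus strand: ggaatgtctgtCACGTGgtccattttat
Ctsl, chr13:64370740-64370767, minus strand: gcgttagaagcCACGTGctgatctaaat

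Lamp1 had the most copies, 4 within the stretch from 66 to 6 bases before its start, shown here because no other member with a promoter entry held more than 2 copies.
Lamp1, chr8:13159095-13159155, plus strand: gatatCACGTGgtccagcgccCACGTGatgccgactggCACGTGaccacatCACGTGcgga

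Among the 28 promoters with no CACGTG, 27 belong to tested genes, of which 9 were higher and 1 lower, with a median of 0.66, close to the 0.61 of the members with it. GAGGAAGT was present for 4 of 40 (10%), against 3.69% of all genes with a promoter and 4.2% of the tested ones. It lies in the promoters of Ctsc and Ctss, which rose, and of Gla and Gusb, which did not pass. Of all 328 tested genes with GAGGAAGT, 21 were higher (6.4%), beside 3.13% of all genes tested, with or without a promoter entry. The 2 that rose are shown with the motif in capitals, which reads as ACTTCCTC in the direction of these genes.
Ctsc, chr7:88277923-88277952, plus strand: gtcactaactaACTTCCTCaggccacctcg
Ctss, chr3:95526773-95526802, plus strand: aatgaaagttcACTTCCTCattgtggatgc

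Such matches describe letters in a window, not binding. Of the 35 tested members with a promoter and no GAGGAAGT, 9 were higher. A role of PU.1 in these differences was not tested. Sfpi1, which encodes PU.1, had 19.4, 12.5, 20.4 and 4.75 FPKM in IL27ra KO replicates 1 to 4, against 0 to 3.63 FPKM in WT libraries, and is 1 of the macrophage markers above.

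**Figure D3:**
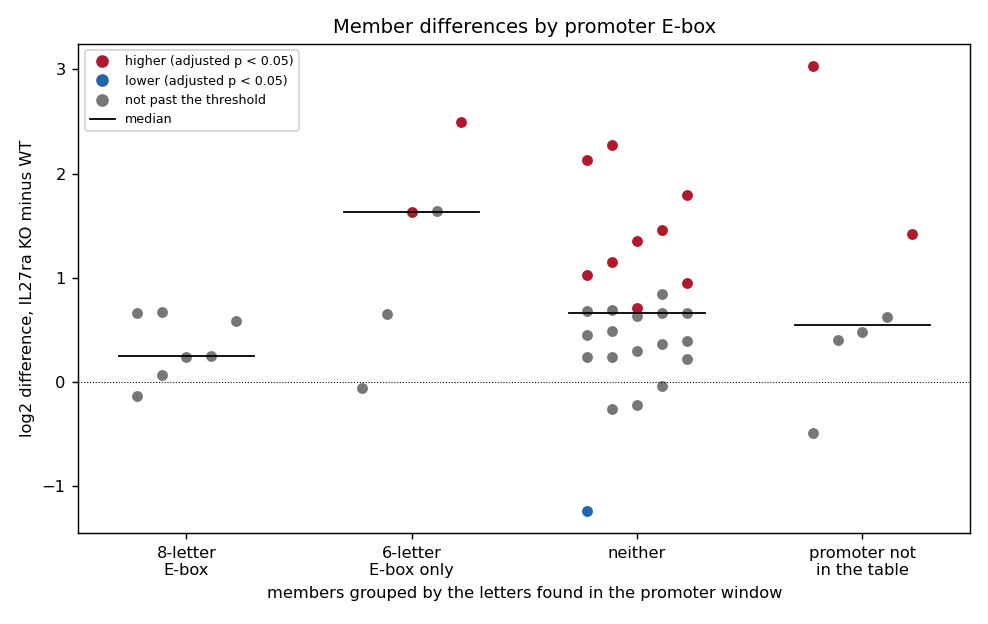
Log2 difference, IL27ra KO minus WT, of the tested members, grouped by whether the promoter window holds the 8-letter E-box, the 6-letter E-box only, neither, or has no entry in the promoter table. Each point is a gene, coloured by its call, and the line is the median of the group. The 7 genes with the 8-letter E-box have a median of 0.25 and none passed, which for 7 genes is near the 3.13% higher of all genes tested.

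Of 8 cysteine cathepsins tested, 6 were higher and Ctso and Ctsw did not pass. Their median log2 difference was 1.38. Cathepsin H, an aminopeptidase, had 42.0, 26.5, 32.7 and 7.80 FPKM in IL27ra KO replicates 1 to 4, against 0.53, 4.88, 0.70, 2.10 and 3.89 FPKM in WT replicates 1 to 5. The groups did not overlap, and the difference of 3.03 (SE 0.48; limma, adjusted p = 0.00271) was larger than for any other member. Its lowest IL27ra KO value was that of replicate 4, the library with the least macrophage RNA of its group.

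Cathepsin S, which cuts the invariant chain of MHC class II in antigen-presenting cells, had 252, 159, 230 and 80.5 FPKM in IL27ra KO replicates 1 to 4, against 29.0, 99.1, 15.2, 29.3 and 52.5 FPKM in WT replicates 1 to 5. It was the only 1 of the 13 genes that rose whose groups overlapped, because the library labelled WT replicate 2 exceeded IL27ra KO replicate 4. The difference was 2.13 (SE 0.46; limma, adjusted p = 0.0177), and the call was lost without IL27ra KO replicate 1, 2 or 3 (adjusted p = 0.0733, 0.052 and 0.0759) and with no filter on low values (adjusted p = 0.0569).

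Cathepsin L, a broad endopeptidase, had 24.0, 34.0, 36.9 and 53.0 FPKM in IL27ra KO replicates 1 to 4, against 11.3, 15.4, 9.27, 12.1 and 7.51 FPKM in WT replicates 1 to 5. It rose by 1.63 (SE 0.25; limma, adjusted p = 0.00239) with no overlap. Of the 13 genes that rose, Ctsl was the only 1 for which IL27ra KO replicate 4 was not the lowest library of its group, and there it was the highest. The macrophage sum of that library, 1110 FPKM with 568 FPKM from Ly6c2, was the lowest of the group.

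Cathepsin B, an abundant endopeptidase and dipeptidase, had 98.0, 95.6, 112 and 69.0 FPKM in IL27ra KO replicates 1 to 4, against 31.5, 42.5, 25.2, 26.0 and 50.9 FPKM in WT replicates 1 to 5. Cathepsin C had 62.9, 55.9, 82.3 and 32.3 FPKM in IL27ra KO, against 15.4, 31.9, 15.9, 20.0 and 26.3 FPKM in WT. Cathepsin Z, a carboxypeptidase, had 114, 100.2, 117 and 57.2 FPKM in IL27ra KO, against 44.4, 44.9, 34.0, 47.4 and 38.7 FPKM in WT. For all 3 the groups did not overlap, although replicate 4 of IL27ra KO exceeded the library labelled WT replicate 2 by little for Ctsc. The differences were 1.42 (SE 0.25), 1.35 (SE 0.29) and 1.15 (SE 0.23), with limma adjusted p = 0.00454, 0.0154 and 0.0116 for Ctsb, Ctsc and Ctsz. The Ctsb call held in all 19 alternatives, while those of Ctsc and Ctsz were lost when IL27ra KO replicate 1, 2 or 3 was left out, with adjusted p as high as 0.0747 for Ctsc and 0.0655 for Ctsz.

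Cathepsin W, the member of cytotoxic lymphocytes, went the other way in level but did not pass. It had 54.6, 72.7, 55.2 and 135 FPKM in IL27ra KO replicates 1 to 4, against 98.2, 139, 94.0, 93.1 and 101 FPKM in WT replicates 1 to 5. IL27ra KO replicates 1 to 3 lay below every WT library and replicate 4 lay among them, so the groups overlapped, with a difference of -0.49 (SE 0.27; limma, adjusted p = 0.442). The summed T cell markers had the same order within IL27ra KO replicates 1, 3, 2 and 4, at 519, 635, 733 and 1380 FPKM. Scaled to the T cell identity genes, the Ctsw difference was 0.23 (adjusted p = 0.46), where the median of all genes was 0.63. Ctso, a widely expressed cathepsin, averaged 3.02 ± 0.442 FPKM in IL27ra KO and 3.70 ± 0.685 FPKM in WT (SD, n = 4 and n = 5; limma, adjusted p = 0.652). Ctsk, the collagen-cutting cathepsin of osteoclasts, had 0.52, 0.59, 0.53 and 1.55 FPKM in IL27ra KO, against 0.39, 0, 0, 0.58 and 0.82 FPKM in WT replicates 1 to 5.

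The makeup of the cathepsin RNA differed accordingly. The 9 cysteine cathepsins summed to 651, 548, 669 and 439 FPKM in IL27ra KO replicates 1 to 4, against 234, 381, 199, 233 and 286 FPKM in WT replicates 1 to 5. Cathepsin S made up 38.7%, 29.0%, 34.4% and 18.3% of that sum in IL27ra KO, against 12.4%, 26.0%, 7.63%, 12.5% and 18.3% in WT. Cathepsin W made up 8.39%, 13.3%, 8.26% and 30.7% in IL27ra KO, against 41.9%, 36.6%, 47.3%, 39.9% and 35.4% in WT, where it was the largest share in all 5 libraries. The shares of Ctsb and Ctsz were close in the groups, with means of 16.2% ± 1.07 and 16.6% ± 2.38 in IL27ra KO and 13.2% ± 2.74 and 16.3% ± 3.60 in WT (SD, n = 4 and n = 5). These shares are a description, with no test.

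**Figure D4:**
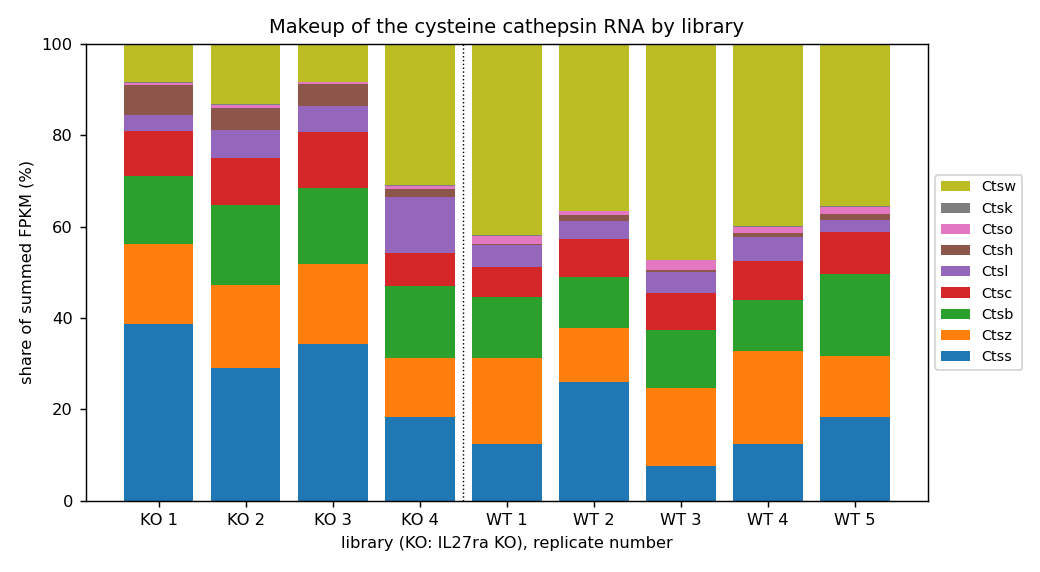
Share of the summed FPKM of the 9 cysteine cathepsins taken by each, in percent, in the IL27ra KO libraries (left of the dotted line) and the WT libraries (right). Cathepsin W, the top segment, takes 8.26% to 30.7% in IL27ra KO and 35.4% to 47.3% in WT.

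Of the 4 other proteases only legumain rose. Lgmn, an asparaginyl endopeptidase that also activates cathepsins, had 91.3, 57.6, 92.8 and 24.4 FPKM in IL27ra KO replicates 1 to 4, against 5.70, 21.2, 4.26, 12.7 and 11.8 FPKM in WT replicates 1 to 5. The groups did not overlap, and the gap between IL27ra KO replicate 4 and the library labelled WT replicate 2 was small. The difference was 2.49 (SE 0.44; limma, adjusted p = 0.00541). Ctsa, a serine carboxypeptidase that also protects other lysosomal enzymes, averaged 35.2 ± 3.69 FPKM in IL27ra KO and 21.9 ± 2.83 FPKM in WT (SD, n = 4 and n = 5). Its groups did not overlap, yet its difference of 0.66 did not pass (limma, adjusted p = 0.0536), and it passed under 6 of 19 alternatives, among them the fit without the library labelled WT replicate 2 (0.72, adjusted p = 0.0125). Exons of Ctsa overlap the opposite-strand gene Pltp, which averaged 45.7 FPKM in IL27ra KO and 4.17 FPKM in WT and was higher. Cathepsin D, the main aspartic protease, was among the most abundant members, at 215 ± 47.1 FPKM in IL27ra KO and 180 ± 38.7 FPKM in WT (limma, adjusted p = 0.679). Tpp1, a tripeptidyl peptidase, averaged 13.3 ± 1.49 and 11.4 ± 2.38 FPKM (limma, adjusted p = 0.676).

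Cst7 was the only member that fell. It had 16.8, 19.9, 14.8 and 35.0 FPKM in IL27ra KO replicates 1 to 4, against 47.7, 84.9, 37.0, 30.7 and 64.7 FPKM in WT replicates 1 to 5. IL27ra KO replicates 1 to 3 lay below every WT library, and replicate 4 exceeded WT replicate 4. The difference was -1.24 (SE 0.31; limma, adjusted p = 0.0407), and the call was lost in 10 of 19 alternatives, among them each fit without IL27ra KO replicate 1, 2 or 3 or WT replicate 1, 2 or 5 (adjusted p = 0.0545 to 0.169). Scaled to the T cell identity genes it was -0.53 (adjusted p = 0.16), where the median of all genes was 0.63.

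**Figure D5:**
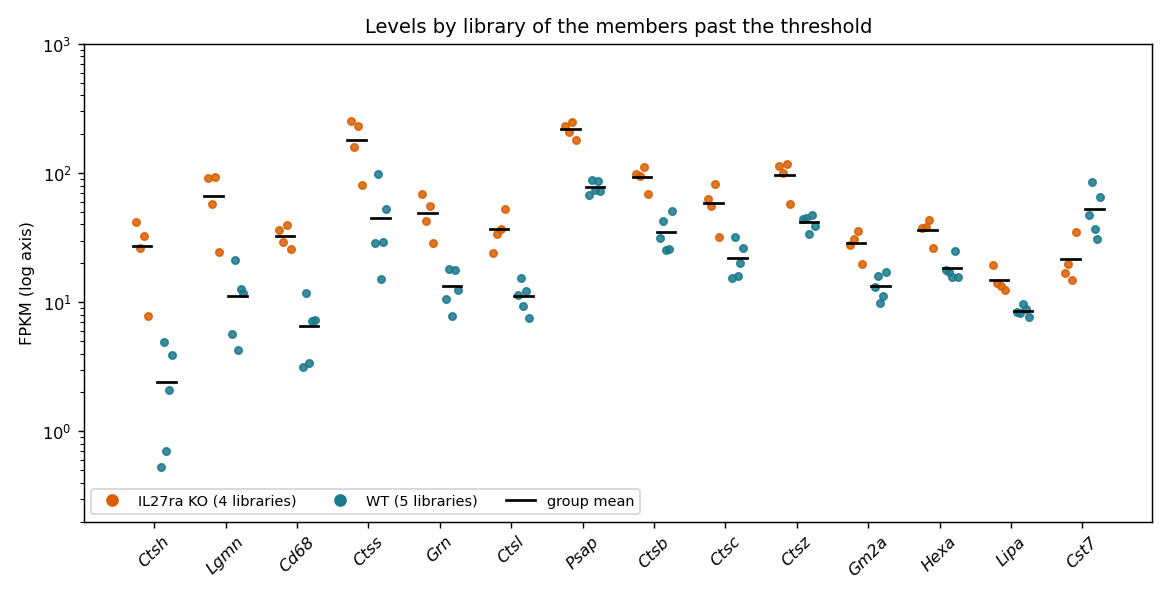
FPKM on a log axis of the 14 members past the threshold in each of the 4 IL27ra KO libraries (orange, left of each pair) and 5 WT libraries (teal, right), with the group means as black lines. The groups overlap for Ctss and Cst7 only, and Cst7 is the single gene lower in IL27ra KO.

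Of 7 glycosidases, which trim sugars from glycoproteins and glycolipids, 1 was higher and 6 did not pass, with a median of 0.67. Hexa, a subunit of beta-hexosaminidase, had 37.3, 38.3, 43.5 and 26.2 FPKM in IL27ra KO replicates 1 to 4, against 17.8, 17.2, 15.6, 24.9 and 15.6 FPKM in WT replicates 1 to 5. The groups did not overlap, but IL27ra KO replicate 4 was just above WT replicate 4. The difference was 0.95 (SE 0.21; limma, adjusted p = 0.0184), and the call was lost without IL27ra KO replicate 1, 2 or 3 or WT replicate 5 (adjusted p = 0.0526 to 0.0963). Gusb, the beta-glucuronidase, averaged 17.3 ± 2.83 FPKM in IL27ra KO and 10.5 ± 2.09 FPKM in WT, with groups that did not overlap (SD, n = 4 and n = 5; limma, adjusted p = 0.0863). It passed without IL27ra KO replicate 4 (adjusted p = 0.0431) or the library labelled WT replicate 2 (adjusted p = 0.04). Gla, the alpha-galactosidase missing in Fabry disease, averaged 3.60 ± 0.392 and 1.96 ± 0.766 FPKM, also without overlap (adjusted p = 0.131). Gaa, the acid alpha-glucosidase of glycogen breakdown, averaged 11.6 ± 2.58 and 7.25 ± 2.42 FPKM (adjusted p = 0.21), and Man2b1, an alpha-mannosidase, 15.4 ± 3.57 and 9.14 ± 2.26 FPKM (adjusted p = 0.108). Glb1, the acid beta-galactosidase used as a stain for senescent cells, averaged 8.16 ± 0.548 FPKM in IL27ra KO and 8.73 ± 1.97 FPKM in WT (limma, adjusted p = 0.924). Neu1, a sialidase, averaged 6.85 ± 0.471 and 5.70 ± 1.13 FPKM (limma, adjusted p = 0.593).

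Of the 7 proteins of lipid handling, 3 rose, and the median difference of the 7 was 0.62. Psap, the precursor of the saposins that present sphingolipids to their hydrolases, had 232, 210, 248 and 181 FPKM in IL27ra KO replicates 1 to 4, against 67.8, 88.9, 74.4, 87.3 and 73.1 FPKM in WT replicates 1 to 5. The lowest IL27ra KO library was far above the highest WT library, replicate 4 included. The difference was 1.46 (SE 0.19), with the smallest adjusted p of all members (limma, 0.00108), and the call held in all 19 alternatives.

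Gm2a, the activator that lifts ganglioside GM2 for hexosaminidase A, had 27.8, 30.9, 35.4 and 19.9 FPKM in IL27ra KO replicates 1 to 4, against 13.2, 15.8, 9.92, 11.1 and 17.1 FPKM in WT replicates 1 to 5. Lipa, the acid lipase that frees cholesterol, had 19.4, 14.0, 13.4 and 12.4 FPKM in IL27ra KO, against 8.37, 8.31, 9.62, 8.91 and 7.68 FPKM in WT. Neither overlapped between the groups. The differences were 1.03 (SE 0.22) and 0.71 (SE 0.18), with limma adjusted p = 0.0169 and 0.0438. Leaving out IL27ra KO replicate 1, 2 or 3 ended the Gm2a call (adjusted p up to 0.0895). The Lipa call was lost in 10 of 19 alternatives, among them the fits without IL27ra KO replicate 1, 2 or 3 (adjusted p up to 0.196) and WT replicate 1, 3, 4 or 5 (adjusted p up to 0.103). Npc1 and Npc2, which carry cholesterol out of the lysosome, did not pass, at 6.96 ± 0.593 and 45.7 ± 4.03 FPKM in IL27ra KO and 5.03 ± 2.18 and 34.9 ± 6.75 FPKM in WT (SD over 4 and 5 libraries; limma, adjusted p = 0.428 and 0.364). Asah1, an acid ceramidase, averaged 20.5 ± 6.92 and 12.7 ± 3.20 FPKM (adjusted p = 0.284), and Ppt1, a palmitoyl-protein thioesterase, 18.6 ± 2.50 and 15.2 ± 3.72 FPKM (adjusted p = 0.57).

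Among the 12 membrane and other proteins, Cd68 and Grn rose and 10 did not pass. Cd68, a LAMP-family glycoprotein used as a macrophage marker, had 36.2, 29.3, 39.8 and 26.0 FPKM in IL27ra KO replicates 1 to 4, against 3.15, 11.8, 3.40, 7.19 and 7.22 FPKM in WT replicates 1 to 5. Grn, which encodes progranulin, a secreted and lysosomal protein, had 68.4, 42.4, 55.6 and 29.0 FPKM in IL27ra KO, against 10.6, 17.9, 7.83, 17.7 and 12.4 FPKM in WT. All IL27ra KO libraries were above all WT libraries for both genes. The differences were 2.27 (SE 0.31) and 1.79 (SE 0.29), with limma adjusted p = 0.00123 and 0.00282, and both calls held in all 19 alternatives.

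Lamp1, a major glycoprotein of the lysosomal membrane, reaches the surface of T cells that release their granules. It had 91.5, 84.4, 78.5 and 28.5 FPKM in IL27ra KO replicates 1 to 4, against 7.94, 11.5, 19.0, 49.7 and 34.7 FPKM in WT replicates 1 to 5. IL27ra KO replicates 1 to 3 stood above all WT libraries, and replicate 4 lay inside the WT range. The difference of 1.64 had an SE of 0.48 and did not pass (limma, adjusted p = 0.0777). It passed without IL27ra KO replicate 4 (2.03, adjusted p = 0.022) or WT replicate 4 (1.96, adjusted p = 0.0238). Lamp2, its paralogue needed for autophagy, averaged 43.7 ± 16.4 FPKM in IL27ra KO and 23.0 ± 5.47 FPKM in WT (SD, n = 4 and n = 5; adjusted p = 0.162), and passed without IL27ra KO replicate 4 (adjusted p = 0.0112).

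Some abundant members are also made by melanoma cells. Gpnmb, a glycoprotein of melanosomes and of macrophages, had 234, 195, 180 and 137 FPKM in IL27ra KO replicates 1 to 4, against 134, 65.2, 174, 216 and 68.5 FPKM in WT replicates 1 to 5 (difference 0.63, SE 0.35; limma, adjusted p = 0.438). The melanoma markers summed to 1330, 1380, 1210 and 581 FPKM in the same IL27ra KO libraries and 1050, 386, 903, 1270 and 502 FPKM in the WT libraries, so the lowest libraries of Gpnmb were those lowest for the markers in each group. Cd63, a tetraspanin of lysosomes and melanosomes, averaged 128 ± 24.0 FPKM in IL27ra KO and 82.3 ± 26.5 FPKM in WT (limma, adjusted p = 0.187).

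Laptm5, a lysosomal protein of haematopoietic cells that lowers surface T cell receptor, had the highest mean of the members in both groups, 229 ± 65.4 FPKM in IL27ra KO and 269 ± 44.0 FPKM in WT (SD, n = 4 and n = 5). These means differed by less than their spread (difference -0.26; limma, adjusted p = 0.69), and IL27ra KO replicate 4, at 325 FPKM, was the highest of all 9 libraries. Laptm4a, a relative with wide expression, averaged 38.3 ± 9.15 and 27.5 ± 5.61 FPKM (adjusted p = 0.373). Scarb2, the receptor that carries glucocerebrosidase to the lysosome, averaged 10.7 ± 1.92 and 8.90 ± 1.41 FPKM (adjusted p = 0.628). The secreted glycoprotein Creg1 averaged 9.97 ± 2.29 and 6.01 ± 1.81 FPKM (adjusted p = 0.148). Mcoln1, the calcium channel TRPML1, averaged 8.25 ± 2.20 FPKM in IL27ra KO and 9.44 ± 3.43 FPKM in WT, and Cln3, the protein lost in juvenile Batten disease, 4.95 ± 0.769 and 4.72 ± 1.14 FPKM (limma, adjusted p = 0.877 and 0.918).

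None of the 5 proton pump genes tested passed, although all 5 differences were above 0, with a median of 0.40. Tcirg1, a subunit of the membrane sector, averaged 18.5 ± 3.77 FPKM in IL27ra KO and 12.9 ± 2.73 FPKM in WT (SD, n = 4 and n = 5; limma, adjusted p = 0.278). Atp6v0d1, the ubiquitous d subunit, averaged 23.8 ± 2.36 and 15.7 ± 2.75 FPKM with no overlap between the groups (adjusted p = 0.107). Atp6v1a, the catalytic subunit, averaged 16.3 ± 3.02 and 14.4 ± 5.18 FPKM, and without the library labelled WT replicate 2 its difference was -0.05 (adjusted p = 0.922), where it was 0.24 (adjusted p = 0.791) with all libraries. Atp6v1b2 and the accessory subunit Atp6ap1 averaged 34.3 ± 3.69 and 30.3 ± 3.70 FPKM in IL27ra KO and 26.6 ± 8.12 and 23.4 ± 3.19 FPKM in WT (adjusted p = 0.471 and 0.368). Atp6v0d2, the d subunit of osteoclasts and macrophages, was below the filter with 0.72, 2.22, 0.80 and 2.64 FPKM in IL27ra KO replicates 1 to 4, against 0.12, 0.35, 0, 0 and 0.39 FPKM in WT replicates 1 to 5. Its groups did not overlap, and in the fit with no filter on low values its difference was 1.08 (SE 0.24; limma, adjusted p = 0.0526).

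Tfeb, the regulator of lysosomal genes, was low and did not differ beyond its spread. It had 1.59, 1.29, 1.56 and 1.52 FPKM in IL27ra KO replicates 1 to 4, against 0.51, 3.29, 0.75, 1.69 and 2.56 FPKM in WT replicates 1 to 5. The WT values enclosed all IL27ra KO values, the library labelled WT replicate 2 being the highest. The difference was -0.04 (SE 0.30; limma, adjusted p = 0.974), and its sign turned in 8 of 18 alternatives.

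The other genes of the lysosome, 106 in a list of further hydrolases, pump subunits, transporters, sorting factors, TFEB relatives and cystatins, had 96 that could be tested. Of these, 6 were higher (6.25%, beside 3.13% of all genes tested), 1 was lower (beside 1.11%) and 89 did not pass (limma). Their median log2 difference was 0.23, beside 0.02 for all genes tested. Slc11a1, the iron and manganese transporter NRAMP1 of phagocytes, had 11.4, 10.6, 13.6 and 5.13 FPKM in IL27ra KO replicates 1 to 4, against 0.62, 2.90, 0, 2.21 and 1.88 FPKM in WT replicates 1 to 5. It rose by 2.24 (SE 0.38; adjusted p = 0.00395). Among 29 other hydrolases, 5 rose, among them Pla2g15, a lysosomal phospholipase (1.21, adjusted p = 0.00616), Dnase2a, which degrades engulfed DNA (0.99, adjusted p = 0.0258), Plbd1 (2.61, adjusted p = 0.0358) and Prcp, a prolyl carboxypeptidase (0.99, adjusted p = 0.0358). The calls of Slc11a1 and Pla2g15 held in every alternative run, while those of Dnase2a, Plbd1 and Prcp were lost without IL27ra KO replicate 1, 2 or 3 and without WT replicate 1 or 5, and that of Plbd1 without WT replicate 3 as well (adjusted p up to 0.149).

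Arsb, the sulfatase of dermatan sulfate, was the single gene of that list that fell. It had 10.2, 7.92, 9.34 and 18.2 FPKM in IL27ra KO replicates 1 to 4, against 23.9, 34.7, 32.4, 24.4 and 37.6 FPKM in WT replicates 1 to 5. All IL27ra KO libraries were below all WT libraries, as for 2.47% of all genes tested. The difference was -1.39 (SE 0.24; limma, adjusted p = 0.0049), and it was -0.70 (adjusted p = 0.0876) when scaled to the T cell identity genes. None of 13 further pump subunits, 21 sorting factors, 13 TFEB relatives and scaffold genes and 2 cystatins passed, and their medians were 0.31, 0.07, 0.20 and 0.92. In lists this small, no call is near the 3.13% higher of all genes tested. Of the TFEB relatives, Mitf, also a melanoma marker, averaged 42.7 FPKM in IL27ra KO and 16.6 FPKM in WT (1.52, SE 0.53; limma, adjusted p = 0.156). Tfe3 averaged 5.26 and 4.59 FPKM (0.20, SE 0.23; limma, adjusted p = 0.766).

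Within IL27ra KO, replicate 4 was the lowest of the 4 libraries for 12 of the 13 genes that rose and for 22 of the 31 that did not pass. It was still above every WT library for 12 of the 13, all but Ctss. Among the 31 genes that did not pass, replicate 4 was the highest library of its group for 4, namely Ctsw, Ctsd, Gla and Laptm5, as it was for Ctsl and Cst7 among the called genes. Summed over the 47 genes, the level was 2520, 2240, 2510 and 2010 FPKM in IL27ra KO replicates 1 to 4, against 1320, 1580, 1390, 1610 and 1480 FPKM in WT replicates 1 to 5.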

How the data were processed

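RNA from bulk CD8+ T cells of B16F10 tumours was sequenced in 9 libraries made with an adaptation of SMART-Seq 2, per the labels' protocols. The deposited values are FPKM per gene, computed with RSEM and normalized by TMM, per the labels. The submitters' processing notes name TopHat, RSEM, DESeq and build mm9, without versions, roles or order. Strand use is not given in the sources used here, so exons shared with an opposite-strand gene cannot be told apart: Ctsb with Fdft1, Ctsz with Nelfcd, Hexa with Tmem202, Grn with Fam171a2, Ctsw with Fibp, Ctsa with Pltp and Neurl2, Lamp1 with Grtp1, Ppt1 with Cap1 and Cln3 with Apobr, in GENCODE M21. Glb1 shares exons with Tmppe on its own strand. RSEM splits fragments that match several genes, and PCR copies count as fragments.

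From the deposited FPKM, log2(FPKM + 1) was fitted for genes averaging 1 FPKM or more by limma 3.58.1 in R 4.3.3 (trend, Benjamini-Hochberg over all 10374 genes, threshold 0.05). The fit was also run on simulated data, where each gene varied independently. That run cannot show how differences shared by many genes of a library affect the calls. The alternatives changed the pseudocount (0.1 or 5), dropped the low-value filter or raised it to 5 FPKM, and used quantile scaling, equal totals without Rn45s, scaling to T cell identity genes, robust variance, library quality weights, a replicate block and leaving out each library. For Il27ra an exact permutation test, two-sided, was added. The fragments per library were estimated from single-transcript genes, where 67.1% to 70.0% of low values came within 0.1 of whole multiples (20% if evenly spread). These estimates rest on lengths of another build and on TMM-scaled values, so they are not raw fragment counts. The members and lists were chosen with earlier results of these data known. Every member is named with its values, with each library's value for those past the threshold and for Ctsc, Ctsw, Cst7, Lamp1 and Tfeb. Of the other lysosomal genes, the rule names up to 4 passing genes of each list by smallest p. Prcp, Mitf and Tfe3, as well as the values of each library for Gpnmb, Ctsk and Atp6v0d2, were added after they were seen. No batch is given in the labels. Promoter sequences are those of RefSeq on GRCm38.p6; 7 members had no entry and are Atp6v0d2, Asah1, Ctsh, Npc1, Ctsb, Ctsw and Atp6v1b2. Some genes are counted in the lists and not reported here by name.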

Additional observations from a re-analysis of the deposited data

Results flagged for a closer look

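In 94 comparisons of a member's libraries within a group, 8 had a single library whose gap to the nearest other, divided by the range of the group on the log2 scale, was above Dixon's 95% critical value, where chance flags about 1 in 20 groups. IL27ra KO replicate 4 was high for Ctsk (1.55 FPKM) and low for Lamp1 (28.5 FPKM). The library labelled WT replicate 2 was high for Ctsw (139 FPKM) and low for Atp6v1a (5.47 FPKM). WT replicate 5 was high for Ctsd (249 FPKM), WT replicate 4 for Hexa (24.9 FPKM) and Neu1 (7.71 FPKM), and WT replicate 3 for Atp6ap1 (28.9 FPKM).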

How the results depend on the processing

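Of the 13 genes that rose, all 13 stayed above 0 in each of the 19 alternatives, and 7 (Ctsb, Ctsh, Ctsl, Lgmn, Psap, Cd68 and Grn) passed in every one. Scaling to the T cell identity genes called 1522 of all genes (1472 higher and 50 lower, against 325 and 115), 32 members higher and 0 lower with a median of 1.30, and 31 other lysosomal genes higher and 0 lower; quantile scaling gave 291 and 167 of all genes. Library quality weights called 974 of all genes, 24 members higher, 20 other lysosomal genes higher and 4 lower, and Il27ra passed (-1.42). The filter at 5 FPKM called 219 of all genes. A pseudocount of 5 gave a median of 0.45. The call of Cst7 as lower, 1 member, went to 0 with a pseudocount of 0.1 and with no filter, and other lysosomal genes called higher went to 2 with no filter and 3 at the same total without Rn45s.

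With each library left out in turn, the calls ranged from 227 to 639 of all genes, 7 to 16 members higher, 0 to 1 member lower, 2 to 10 other lysosomal genes higher and 1 to 2 lower, the members' median from 0.54 to 0.67, and the Il27ra difference from -1.42 to -0.88. No pairing by replicate number was seen. Deviations of same-numbered libraries correlated at 0, -0.01, -0.07 and -0.15, and 0 of 4 IL27ra KO libraries were closest to their own number. A pairing is not excluded, because deviations from a group mean also hold other differences between libraries. The fit with the replicate number as a block called 273 of all genes, 10 members higher and 0 lower, and 2 other lysosomal genes higher. The member calls it lost were those of Ctsz (adjusted p = 0.0744), Hexa (0.134), Lipa (0.217) and Cst7 (0.128).

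Of members that did not pass, Tfeb turned to 0.05 (pseudocount 0.1), 0.02 (same total), 0.44 (T cell scaling), 0.10 (weights), 0.08 (replicate block), 0.0017 (without IL27ra KO replicate 2), 0.15 and 0.08 (without WT replicate 2 or 5). T cell scaling also turned Ctso (0.36), Ctsw (0.23), Glb1 (0.59), Laptm5 (0.47) and Mcoln1 (0.52). With each library left out in turn, Tfeb ranged from -0.23 to 0.15, Mcoln1 from -0.33 to 0.05 (highest without IL27ra KO replicate 4), Atp6v1a from -0.05 (without the library labelled WT replicate 2) to 0.38, Glb1 from -0.16 to 0.03 and Cln3 from -0.01 to 0.16 (the turned values both without WT replicate 4). Apart from scaling and smaller groups, the cause of these changes was not tested. Members near 1 FPKM, such as Tfeb, rest on few fragments.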
